A study of Mus musculus with 2 samples.

Results

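The DNAJ genes encode the J-domain co-chaperones, also called HSP40 proteins. Members were taken as the mouse genes whose symbol starts with Dnaja, Dnajb or Dnajc followed by a digit and that have at least 1 transcript annotated as protein coding. The rule found 45 of 55536 annotated genes, of which 4 are Dnaja, 13 Dnajb and 28 Dnajc genes. Another 2 symbols, Dnaja1-ps and Dnajc19-ps, had no coding transcript and were left out. Levels came from total RNA of the gastrocnemius, the large calf muscle, of 2 untreated male B6CASTF1/J mice aged 8 to 10 months, with 1 library each. B6CASTF1/J mice are F1 animals from a cross between the strains C57BL/6J and CAST/EiJ. Both animals form 1 group, so the data allow levels and transcript use to be described and the animals to be compared. The labels number them 2 and 4, called replicate 1 and replicate 2 here, under 1 shared donor identifier.

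J-domain proteins bring unfolded proteins to HSP70 chaperones and switch on the ATP hydrolysis that lets HSP70 hold them. A histidine-proline-aspartate triplet in the J domain is needed for that step. Class A and class B members, close relatives of the bacterial DnaJ, work mainly in the cytosol and nucleus, while class C members share little beyond the J domain and are tied to particular compartments. Muscle depends on this system because sarcomere proteins are large, long-lived and mechanically stressed, and human mutations in DNAJB6 and DNAJB4 cause myopathy.

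The codons of the triplet were present in the longest coding transcript of 44 of 45 members, all but Dnajb13. The first such triplet lay at codon 60 or earlier in 22 members and after codon 200 in 7. The latest was codon 1337 of 2248 in Dnajc13, followed by codon 932 of 968 in Dnajc6. In Dnajc7 it was codon 409 of 494. The stretches below show the triplet, in capitals, with the coding bases around it in the members on which the results turn. They were read 5′ to 3′ from the GENCODE M21 transcripts. The longest coding transcript need not be the leading one. In the levels used below, Dnajb4-201 and Dnajb5-201 held 0 TPM in both animals.
Dnajb5-201: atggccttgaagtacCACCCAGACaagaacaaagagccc
Dnaja2-201: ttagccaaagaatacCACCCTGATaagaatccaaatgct
Dnajb6-201: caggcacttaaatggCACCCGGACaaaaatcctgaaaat
Dnajb1-201: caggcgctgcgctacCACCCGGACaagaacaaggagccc
Dnajb4-201: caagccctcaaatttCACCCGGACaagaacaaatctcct
Dnaja1-201: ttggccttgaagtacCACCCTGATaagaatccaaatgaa
Dnaja4-201: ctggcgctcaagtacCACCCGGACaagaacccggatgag
Dnajc15-202: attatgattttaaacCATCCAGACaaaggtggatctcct
The same 3 residues were thus written with different synonymous codons among these genes.

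Of the 45 members, 37 held 1 TPM or more in both animals (TPM is a relative level corrected for transcript length). The summed level of all members was 826 TPM in replicate 1 and 788 TPM in replicate 2, or 807 ± 27.1 TPM (SD, n = 2). That was 0.186% ± 0.00812 of the TPM of nuclear protein-coding genes. Dnajc genes held 49.2% ± 0.714 of the family sum, Dnajb genes 31.2% ± 0.770 and Dnaja genes 19.6% ± 0.0562. The 6 most abundant members, Dnajb5, Dnaja2, Dnajc15, Dnajc19, Dnaja3 and Dnajc7, held 45.7% ± 1.59 of it. The median member held 11.1 TPM in replicate 1 and 10.4 TPM in replicate 2. Annotated genes held 36792611 and 37752249 estimated counts, and a count of 0 allows up to 3 counts, or 0.0815 and 0.0795 CPM (counts scaled to library size), counting error only. Markers of muscle fibres summed to 75265 and 80271 TPM, and the neuron markers to 0.25 and 0.26 TPM.

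**Figure D1:**
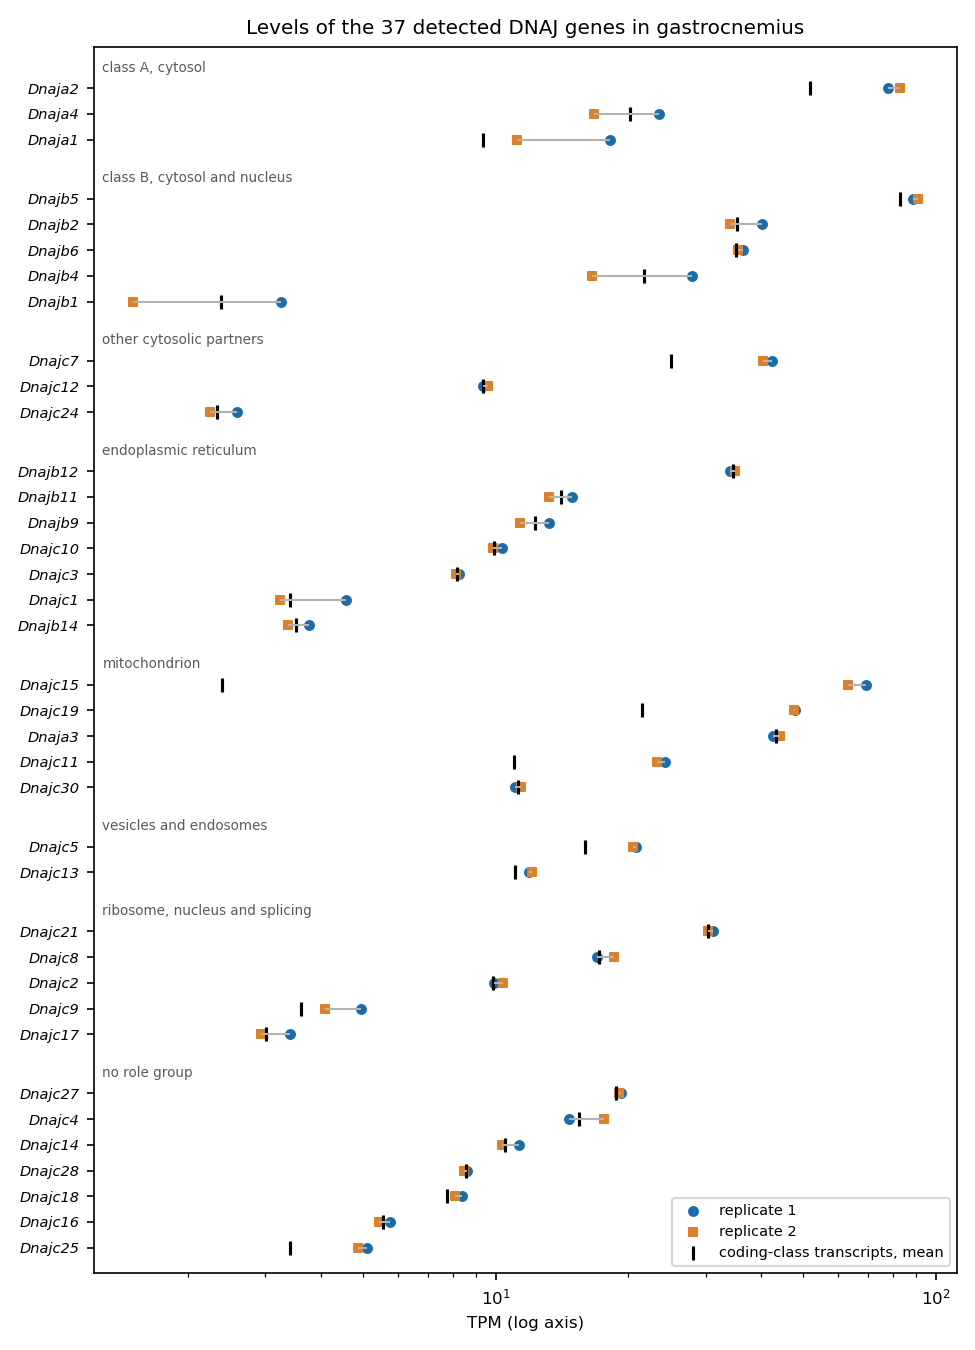
Level of each of the 37 detected DNAJ genes in TPM (log axis), by role, with 1 point per animal and a tick for the mean of transcripts annotated as protein coding. Dnajb5 and Dnaja2 lie furthest to the right at 89.7 and 80.4 TPM, and the tick of Dnajc15 lies far left of its points, at 2.39 TPM.

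In the cytosol, the class B gene Dnajb5 and the class A gene Dnaja2 led. Dnajb5 (ENSMUSG00000036052.14, mm10 chromosome 4, 42949814 to 42959425), a close relative of Dnajb1, held 88.6 TPM in replicate 1 and 90.9 TPM in replicate 2. It was the most abundant member, though not in a second quantification given below, and ranked 591 among 22015 nuclear protein-coding genes. Dnaja2 (ENSMUSG00000031701.6, chromosome 8, 85537633 to 85555344), which works with HSP70 in refolding, held 77.8 and 83.0 TPM. In the first quantification the values of these top members did not overlap across the animals. The other class A genes were lower, with Dnaja4 (chromosome 9, 54698873 to 54716315) at 23.5 and 16.8 TPM. Dnaja1 (chromosome 4, 40722150 to 40737149), a partner of HSP70 in folding and in protein import, held 18.2 and 11.2 TPM.

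Among class B genes, Dnajb2, whose protein also binds ubiquitin chains, held 40.2 and 34.1 TPM. Dnajb6 (ENSMUSG00000029131.14, chromosome 5, 29735688 to 29818134), a suppressor of protein aggregation, held 36.5 and 35.5 TPM, within the range of Dnajb2. Dnajb4 (chromosome 3, 152178511 to 152210302) followed at 27.9 and 16.5 TPM. Dnajb1 (ENSMUSG00000005483.10, chromosome 8, 83608193 to 83612653), the classical heat-inducible HSP40, was the lowest of the detected members at 3.25 and 1.5 TPM, ranked 8298 among nuclear protein-coding genes. Its neighbour in the order was Dnajc24, which acts in diphthamide synthesis, at 2.59 and 2.25 TPM, and the ranges of the pair overlapped. Dnajc7, which holds tetratricopeptide repeats and binds both HSP70 and HSP90, held 42.3 and 40.4 TPM. Dnajc12, a co-chaperone of aromatic amino acid hydroxylases, held 9.36 and 9.59 TPM.

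All 7 members of the endoplasmic reticulum group were detected. Dnajb12, a membrane protein in the degradation of misfolded proteins, led at 34 and 35.0 TPM, and its relative Dnajb14 was far lower at 3.77 and 3.38 TPM. The lumenal co-chaperones of Hspa5 (BiP) lay between them. Dnajb11 held 14.9 and 13.2 TPM, Dnajb9 13.2 and 11.4 TPM and Dnajc10, a disulfide reductase, 10.4 and 9.87 TPM. Dnajc3, which also inhibits the kinase PERK, held 8.24 and 8.11 TPM. Dnajc1 was at 4.58 and 3.23 TPM, a range that overlapped that of Dnajb14.

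The mitochondrial group held 3 of the 6 most abundant members. Dnaja3, the co-chaperone of the mitochondrial HSP70 Hspa9, held 42.5 and 44.3 TPM. Dnajc19, a subunit of the import motor of the inner membrane, held 47.8 and 47.6 TPM. Dnajc15 (ENSMUSG00000022013.4, chromosome 14, 77820681 to 77875125), an inner membrane protein that restrains respiration, held 69.4 and 63.0 TPM. Dnajc11, a protein of cristae organisation, was at 24.2 and 23.2 TPM and Dnajc30 at 11.1 and 11.4 TPM. Most of the Dnajc15 TPM, and over 50% of the mean Dnajc11 TPM, lay on transcripts not classed as coding. For Dnajc19 the quantifications differed on this point. Splits by counts, given below, were different.

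Members with other known sites of action were at middle to low levels. Dnajc5, the cysteine string protein of secretory vesicles, held 20.8 and 20.5 TPM, and Dnajc13, an endosomal sorting protein, 11.9 and 12.1 TPM. Dnajc21, a factor of large ribosomal subunit assembly, held 31.1 and 30.4 TPM, Dnajc8 of the spliceosome 17.0 and 18.6 TPM, and the ribosome-bound Dnajc2 9.93 and 10.4 TPM. Dnajc9, a histone chaperone, was at 4.95 and 4.09 TPM and Dnajc17, a splicing protein, at 3.41 and 2.93 TPM. Members without a role group were led by Dnajc27, which joins a Rab-like GTPase to a J domain, at 19.3 and 19.1 TPM. Dnajc4 held 14.7 and 17.6 TPM and Dnajc14 11.3 and 10.3 TPM. Dnajc28, Dnajc18, Dnajc16 and Dnajc25 had mean levels of 8.54, 8.24, 5.58 and 4.98 TPM.

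The other 8 members were at or near 0. Dnajc6, the neuronal clathrin-uncoating protein auxilin, had 4 and 7 counts, and Dnajc22 had 2 in each animal. Of the 6 genes grouped as germ cell genes, Dnajb3 had 1 count in replicate 1 and 0 in replicate 2. The other 5, Dnajb7, Dnajb8, Dnajb13, Dnajc5b and Dnajc5g, had 0 counts in both. At this depth a level below the limit given above was not detectable.

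Each compartment's DNAJ genes were set beside the main HSP70 gene of that compartment, as ratios of RNA levels. The 8 class A and class B genes of the cytosol summed to 316 and 289 TPM, against 559 and 371 TPM of Hspa8, the constitutive cytosolic HSP70. Their ratio to Hspa8 was 0.565 in replicate 1 and 0.780 in replicate 2. The 7 genes of the endoplasmic reticulum summed to 89.0 and 84.2 TPM, or 1.204 and 1.546 times Hspa5. The 5 mitochondrial genes summed to 195 and 189 TPM, or 1.51 and 1.58 times Hspa9. In both animals the sum was thus below the HSP70 gene for the cytosolic class A and class B genes and above it in the other compartments. The cytosolic sum held no Dnajc gene, whereas the other sums did. It left out Dnajc7, Dnajc12 and Dnajc24, other cytosolic partners that summed to 54.3 and 52.2 TPM. The reticulum sum included Dnajb12 (34 and 35.0 TPM) and Dnajb14 (3.77 and 3.38 TPM). These genes were set apart above from the lumenal co-chaperones of Hspa5. Without Dnajb12 the reticulum sum would lie below Hspa5 in both animals, so its place above Hspa5 depends on the grouping. How far the other sums depend on the grouping was not tested. With coding transcripts only, the mitochondrial sum was 89.5 ± 1.03 TPM and its ratio to Hspa9 0.725 ± 0.0463 (SD, n = 2), below 1. The ratio for the endoplasmic reticulum remained above 1, at 1.47 ± 0.219, and that of the cytosol was 0.725 ± 0.111.

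**Figure D2:**
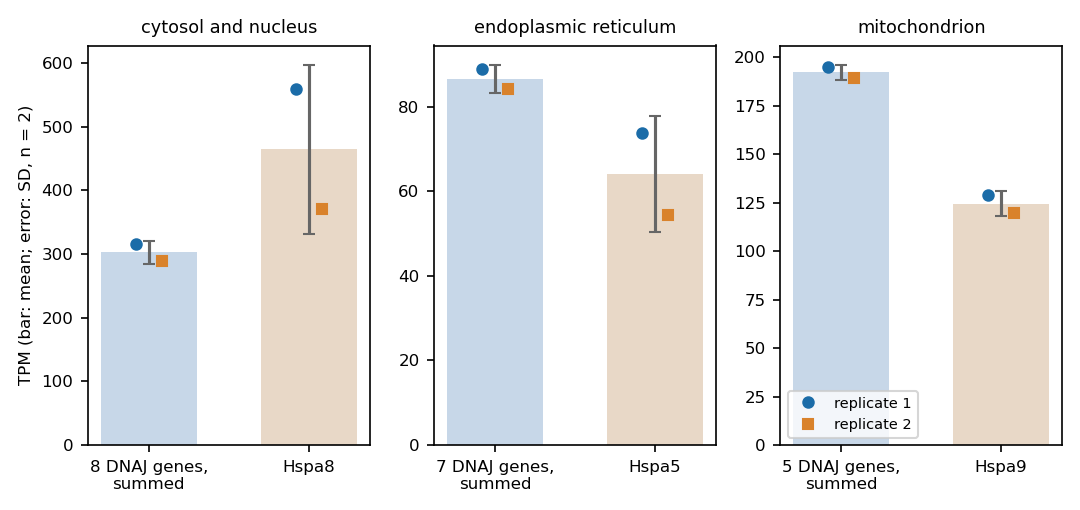
Summed TPM of DNAJ genes of 3 compartments beside the HSP70 gene of each, on separate linear axes. Bars are means, error bars SDs over 2 animals and points the animals. The sum of cytosolic class A and class B genes, 303 TPM, is lower than Hspa8 at 465 TPM. The other sums, 86.6 and 192 TPM, exceed Hspa5 and Hspa9 at 64.2 and 124 TPM. The reticulum sum includes Dnajb12, without which it would lie below Hspa5.

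Transcript use was compared in 35 detected members with more than 1 annotated transcript. Both animals had 1 and the same leading transcript in 32 of these genes, the exceptions being Dnajc7, Dnajc4 and Dnajc24. A second quantification deposited with the data, made from reads and a transcript index, named the same dominant transcript in 30 of 35. It differed for Dnajc5, Dnajc19, Dnaja2, Dnajc13 and Dnajc11. For gene levels, the 37 detected members lay between 0.710 and 1.33 times the value of the second quantification. There Dnajc15 had the highest mean level of the family, with 91.3 and 80.1 TPM. Dnaja2 followed with 74.2 and 85.5 TPM and Dnajb5 with 76.1 and 81.6 TPM, and the values of these members overlapped across the animals.

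Dnajb6 is read into a long and a short protein. In humans the long form is nuclear and the short form, linked to muscle disease, is mainly cytoplasmic. The long transcript Dnajb6-201, with 365 codons, held 73.3% of Dnajb6 TPM in replicate 1 and 76.7% in replicate 2. The short transcript Dnajb6-203, with 242 codons, held 17.0% and 15.7%. The long form exceeded the short form in both animals, and the second quantification gave 71.8% and 73.0% for the long and 17.8% and 15.4% for the short one. Of the 31-base words of each transcript, 52.8% and 26.4% occur in no other Dnajb6 transcript, so reads can tell both from the gene's other transcripts. Of all Dnajb6 words, 81.0% occur in no other gene. The reading frames share their first 232 codons, after which 133 codons belong to the long and 10 to the short form. Their last 45 coding bases show how the ends differ.
Dnajb6-201 (long): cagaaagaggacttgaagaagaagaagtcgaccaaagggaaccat
Dnajb6-203 (short): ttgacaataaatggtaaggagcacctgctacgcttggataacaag

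Dnajb5 was carried by Dnajb5-204, with 348 codons, at 88.5% and 88.6% of its TPM. The second quantification gave this transcript 73.8% and 72.7%. None of its 31-base words (0.00%) is absent from the other Dnajb5 transcripts, so its share rests on the model of the quantifier. Dnajb5-201, with 382 codons, ends in the same 348 codons and starts 34 codons earlier. It held 0 TPM in both animals and in both quantifications. The triplet lies at codon 66 of Dnajb5-201, the longest coding transcript, and at codon 32 of Dnajb5-204. The retained-intron transcript Dnajb5-206 held 6.37% and 5.85%.

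For Dnajb2 the 277-codon Dnajb2-208 held 57.1% and 44.3%, and the 324-codon Dnajb2-210 25.7% and 31.4%. The human long form of this protein is anchored to the endoplasmic reticulum and the short one is soluble. In Dnajb4, Dnajb4-202 held 83.5% and 68.5% and Dnajb4-204 14.4% and 27.7%, both with 337 codons. The leading transcript of Dnajc4 was Dnajc4-201 in replicate 1 (58.9%, against 30.2% in replicate 2) and Dnajc4-202 in replicate 2 (62.8%, against 40.3%). In the second quantification Dnajc4-202 led in both, at 37.04% and 50.56%. Dnajc24-201 held 78.1% in replicate 1 and 23.9% in replicate 2, from 63 and 42 counts of the whole gene, and led in both animals in the second quantification at 81.3% and 50.6%.

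Several abundant members owed much of their TPM to transcripts that are not classed as protein coding. The median share of coding-class transcripts was 96.8% over the 37 detected members and 95.3% over 9815 nuclear protein-coding genes detected in the same way. It was under 50% in 3 members, Dnajc15, Dnajc19 and Dnajc11, and in 712 of those genes (7.25%). In the second quantification it was under 50% in Dnajc15 (1.52% ± 0.171), Dnajc11 (33.1% ± 2.23) and Dnaja2 (49.8% ± 6.14), and not in Dnajc19. In Dnajc15 the coding Dnajc15-202 held 3.46% and 3.77%, or 2.41 and 2.37 TPM, while the processed transcript Dnajc15-203, of 419 bases, held 63.0% and 58.9%. The Dnajc15-201 transcript, classed as a target of nonsense-mediated decay, held 33.6% and 37.3%. On coding transcripts alone Dnajc15 ranked 35 in the family instead of 3. By counts the split was more even, since Dnajc15-202 is 6193 bases long and held 369 and 412 of 1057 and 1135 counts.

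In Dnajc19 the retained-intron Dnajc19-205 held 53.7% and 56.4%, and the coding Dnajc19-202 45.2% and 42.5%. The second quantification gave 38.998% and 24.485% to the first, 35.1% and 34.6% to the other, and 24.8% and 39.8% to the coding Dnajc19-204, which held 0 in the first quantification. Coding transcripts thus held 44.98% ± 1.90 of Dnajc19 in the first and 68.3% ± 10.3 in the second quantification (SD, n = 2), on opposite sides of 50%. Fxr1, at 178.8 TPM, overlaps Dnajc19 on the opposite strand, and since the strand setting of the counting was not given in the sources used here, shared reads cannot be told apart. Coding transcripts held 46.5% ± 3.66 of Dnajc11 (SD, n = 2), 60.7% of Dnajc7, 63.7% of Dnaja1 and 64.4% of Dnaja2. These are shares of TPM, in which a short transcript weighs more than in counts. By counts the coding Dnajc11-201 held 780 of 1069 in replicate 1 and 755 of 1064 in replicate 2. Dnajc19-202 held 304 of 538 and 322 of 599 counts, and Dnaja2-201 3691 of 3955 and 4130 of 4497. Dnajb5 and Dnaja2 remained the first and the second member by coding transcripts, at 82.8 and 51.7 TPM, followed by Dnaja3.

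**Figure D3:**
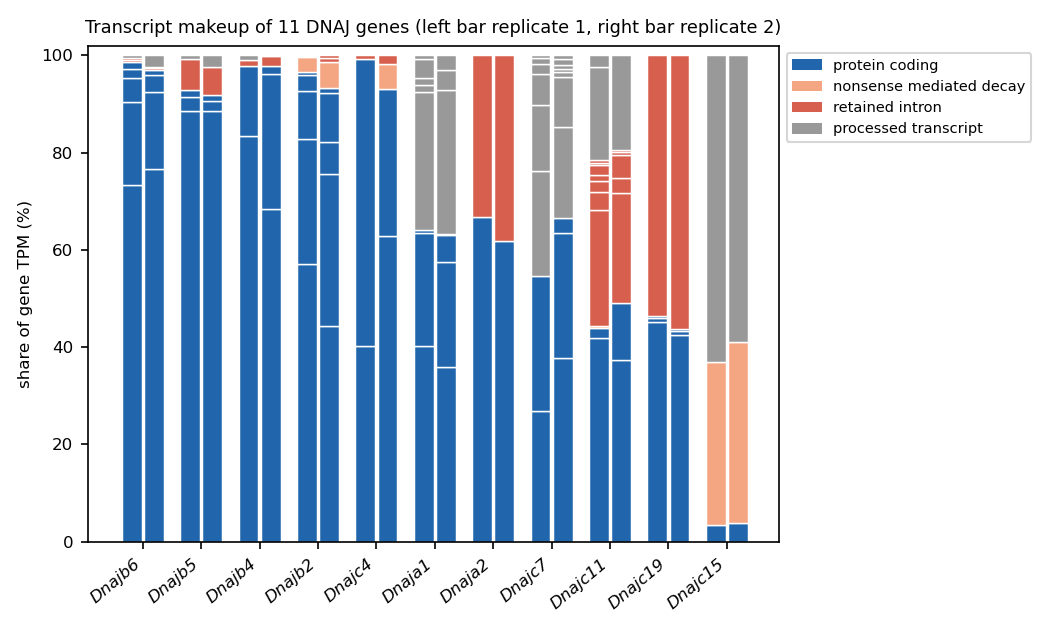
Share of each gene's TPM (%) held by its transcripts in 11 DNAJ genes, with the left bar of each pair for replicate 1 and the right for replicate 2, white lines between transcripts and colours for the annotated class. Coding classes fill most of the bars of Dnajb6 and Dnajb5 and 3.46% and 3.77% of those of Dnajc15.

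The largest differences that passed the test were in cytosolic class A and class B members, which were higher in replicate 1. Differences are log2 ratios of scaled counts, replicate 2 over replicate 1, with 95% counting intervals. They were tested with an exact two-sided binomial test with Benjamini-Hochberg adjustment over all 14101 genes that averaged at least 10 counts. This test compares the 2 libraries against counting noise only and says nothing about conditions. In all, 7 of 37 tested members were called at 0.05, against 21.6% of all tested genes, a share near that background. Of these, 6 were higher in replicate 1 and 1 in replicate 2, where 10.8% and 10.7% of all tested genes were called. Among the 35 members that averaged at least 100 counts, 3 were at least 1.5-fold apart. All 3 were higher in replicate 1, where 1.72% of 9516 genes met this limit, and 1.67% met it in the other direction. Fewer cells of a type and less RNA per cell cannot be told apart in bulk tissue.

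Dnajb1 had 234 counts in replicate 1 and 123 in replicate 2, a log2 ratio of −1.07 (interval −1.41 to −0.76) and an adjusted p of 2.1e-10 in the exact binomial test. Dnaja1 had 809 and 539 counts and a log2 ratio of −0.74 (−0.90 to −0.58), and Dnajb4 1664 and 1118 counts and −0.72 (−0.83 to −0.61). These 3 genes were the ones over 1.5-fold apart, and they remained called with an assumed biological variation of 0.1. Dnaja4, with 1719 and 1387 counts, had a log2 ratio of −0.46 (−0.56 to −0.36), and its call was lost under that assumption (adjusted p = 0.46, edgeR's exact test). Of the 31-base words of Dnaja1, 86.6% occur in no other gene when each transcript is read on its own strand. Smu1 and Gm6297 overlap Dnaja1 on the opposite strand and Mir207 on the same strand, at up to 13.7 TPM. With the strand setting not given, any reads shared with genes on the opposite strand cannot be told apart.

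The remaining calls were small and depended on the setting. Dnajb14 had a log2 ratio of −0.27 (755 and 693 counts, adjusted p = 0.0027 in the exact binomial test) and Dnajb2 one of −0.15 (1889 and 1886 counts, adjusted p = 0.0084). Both calls were lost when libraries were scaled by total counts (adjusted p = 0.096 and 0.59) and under the assumed variation. Dnajc7 was the member called higher in replicate 2, at 0.17 (1141 and 1429 counts, adjusted p = 0.015 in the exact binomial test). This call was lost under spike-in scaling (adjusted p = 0.80) and under the assumed variation, and in TPM the gene was slightly lower in replicate 2, with a log2 ratio of −0.069 (0.1 TPM added). Adjusted p-values of Dnaja3, Dnajb9, Dnajc24 and Dnajc11 lay between 0.05 and 0.06. Of these Dnajc24 had the largest ratio, −0.72 (−1.33 to −0.15), from 63 and 42 counts.

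Dnajb5 and Dnaja2, the most abundant members, lay close to even. Dnajb5 had a log2 ratio of 0.03 (interval −0.02 to 0.09) and Dnaja2 0.03 (−0.03 to 0.10). Dnajc15, Dnajc19 and Dnaja3 followed by level, at −0.05, 0.005 and 0.10 without a call. Next were Dnajc7 at 0.17 and Dnajb2 at −0.15, both called, and Dnajb6 at 0.03 (−0.05 to 0.11), not called. The median over the 35 members that averaged at least 100 counts was −0.05, beside 0.00 for all such genes, and the median absolute value 0.08 beside 0.12. By role, 2 of 3 class A genes, 3 of 5 class B genes and 1 of 7 endoplasmic reticulum genes had a call toward replicate 1. None of the 5 mitochondrial genes, 2 vesicle and endosome genes and 5 ribosome, nucleus and splicing genes tested was called by the exact binomial test. Total count scaling moved the median of all genes by 0.11 and spike-in scaling by −0.15, and the split of called members became 4 higher in replicate 1 and 8 in replicate 2, or 24 and 0. These scalings shift every gene by 1 constant, so the gap between the members' median and that of all genes is fixed.

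**Figure D4:**
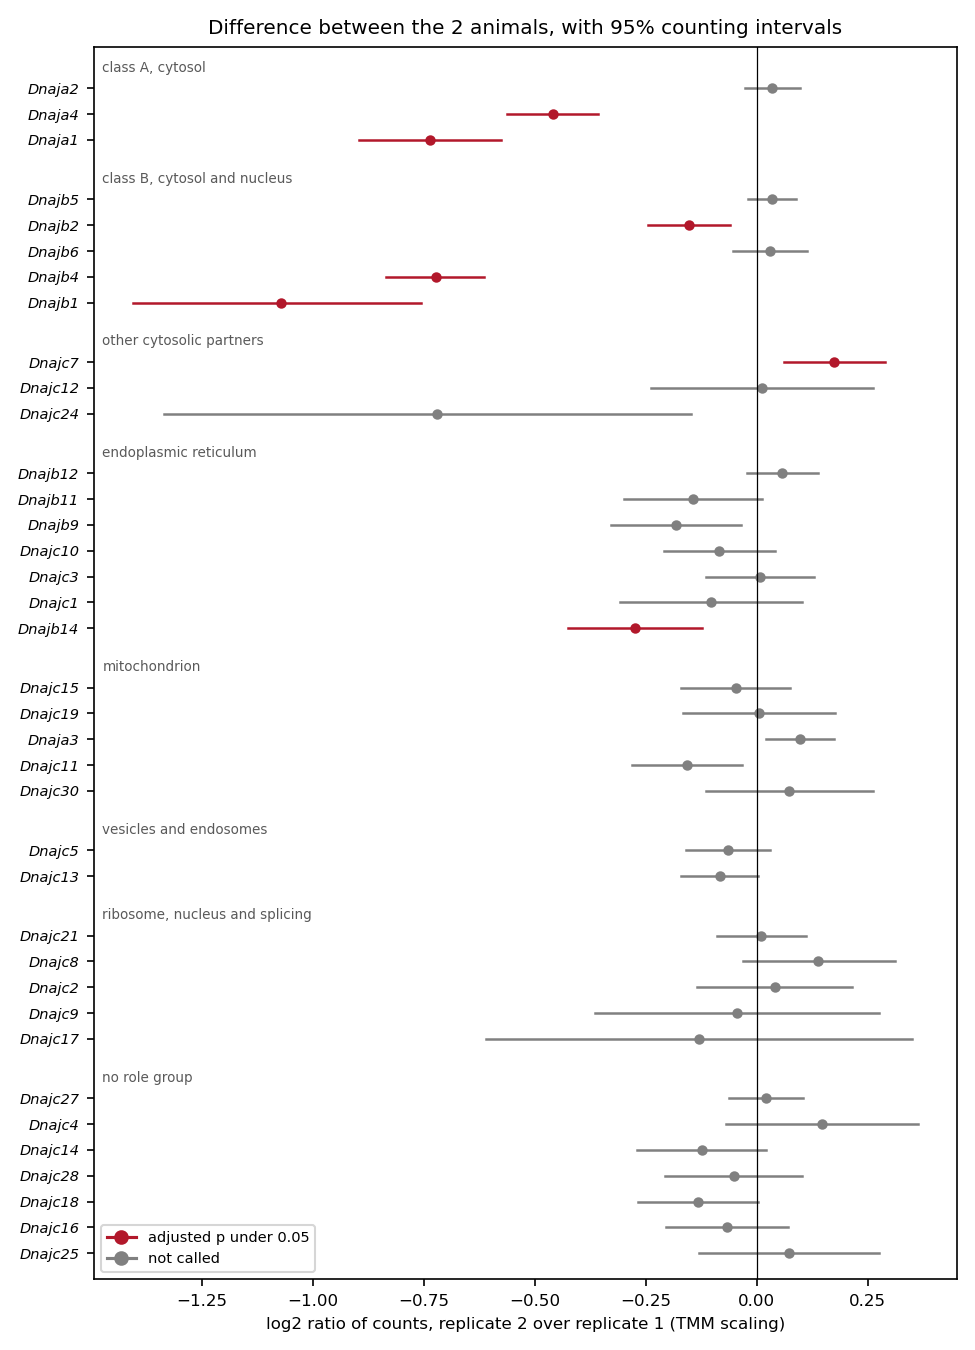
Log2 ratio of scaled counts (replicate 2 over replicate 1) for the 37 tested DNAJ genes, by role, with 95% counting intervals, and red where the adjusted p is under 0.05. Dnajb1, Dnaja1, Dnajb4 and Dnaja4 lie left of 0, at −1.07, −0.74, −0.72 and −0.46.

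The partners of the J-domain cycle were described in a list of 29 genes: HSP70s, nucleotide exchange factors, HSP90s and their adaptors. The exact binomial test called 14 of them and left 15 uncalled, with 13 of the calls toward replicate 1 and 1 toward replicate 2, beside the background shares above. The split was 8 and 4 with total counts, 19 and 0 with spike-ins, and 3 and 0 with the assumed variation of 0.1. Their median log2 ratio was −0.10. The inducible HSP70 genes Hspa1a (532 and 137 counts) and Hspa1b (382 and 115 counts) had log2 ratios of −2.10 and −1.87. They are near-identical copies, so their split is uncertain. Hsp90aa1, the inducible cytosolic HSP90, had −0.88 and Hspa4l, an exchange factor, −0.64.

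Among the most abundant partners, Hspa8 had a log2 ratio of −0.48 and Hspa5 −0.36, both called. Hsp90ab1 at 563 and 528 TPM, Hspa9 at 129 and 120 TPM and Bag3, a partner of HSP70 in clearing damaged muscle filaments, at 50.5 and 45.7 TPM were called at −0.06, −0.08 and −0.12. The exchange factor Bag1 had −0.06 and was not called. At the other end Hspa2 had 0.47, the call higher in replicate 2, which was lost without a count minimum, and Hspa14, Grpel2 and Sil1 had 0.24, 0.13 and 0.13 without a call. Further J-domain genes outside the naming rule were at the levels of lower DNAJ members. Sec63 held 7.01 and 7.47 TPM, Hscb 7.50 and 5.94 TPM and Gak 3.84 and 4.24 TPM. These 3 genes were not called by the exact binomial test.

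Other lists moved between the same libraries. All 8 slow fibre markers were called higher in replicate 1, with a median log2 ratio of −0.63 and summed levels of 1676 and 1105 TPM. Calls higher in replicate 2 were made for 4 of 6 endothelial, 5 of 6 smooth muscle and pericyte and 4 of 5 adipocyte genes. Their summed levels were 41.9 and 48.4, 161 and 190, and 22.0 and 30.9 TPM. Of 7 muscle fibre markers, 6 had a call toward replicate 2 and 1 toward replicate 1, with a median log2 ratio of 0.13. Toward replicate 2 there were also 2 calls among 3 erythroid and 1 among 4 Schwann and nerve genes. The 5 fibroblast genes had 1 call each way, and the satellite cell list had no call. The shares over all tested genes were 10.8% toward replicate 1 and 10.7% toward replicate 2. None of the macrophage genes was called by the exact binomial test, and their sums were 5.13 and 3.79 TPM. The part of fibre type or of these cells in the DNAJ differences was not tested.

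Promoter windows were searched because the heat shock factor HSF1 binds inverted repeats of a short unit, GAA, and because several of the genes that stood apart are known heat shock genes. RefSeq windows from 250 bases before to 50 bases after a start (GRCm38.p6) were at hand for 37 of 45 members. A pair of facing units, read as GAANNTTC or TTCNNGAA on either strand, was present in 7 of the 37 members (18.9%) and in 17% of 27025 genes. GAANNTTC alone was found in 5 members (13.5%, against 9.04%), and TTCNNGAA alone in 3 (8.11%, against 9.6%). A run of 3 alternating units was present in 1 member, Dnajb6, and in 0.662% of all genes. The stretches below hold the sites upstream of the start in Dnajb6 and in the called members, with units in capitals, on the strand of the gene.
Dnajb6 (chr5:29735832-29735884, + strand): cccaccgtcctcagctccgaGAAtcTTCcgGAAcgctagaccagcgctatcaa
Dnaja4 (chr9:54699449-54699534, + strand): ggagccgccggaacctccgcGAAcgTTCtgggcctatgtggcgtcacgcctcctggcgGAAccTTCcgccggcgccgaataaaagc
Dnaja1 (chr4:40722324-40722371, + strand): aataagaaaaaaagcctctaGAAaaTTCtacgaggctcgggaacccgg
Dnajb4 (chr3:152193846-152193879, − strand): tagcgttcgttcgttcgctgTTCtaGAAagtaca
Dnaja4, Dnaja1 and Dnajb4 were higher in replicate 1. The other 3 tested members with an upstream site were not called: Dnajb6, with the longest run, had a log2 ratio of 0.03, Dnajc10 one of −0.08 and Dnajc27 one of 0.02. Neither form was in the windows of Dnajb1, which says only that these letters are not in those windows.

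The endoplasmic reticulum stress element, CCAAT and CCACG spaced by 9 bases, was found in the window of 1 member, Dnajc3, and of 0.137% of all genes. Dnajc3 had a log2 ratio of 0.01 (interval −0.12 to 0.13) between the animals. Its stretch is shown with both parts in capitals.
Dnajc3 (chr14:118937807-118937865, + strand): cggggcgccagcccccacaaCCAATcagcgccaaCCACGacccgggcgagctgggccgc
A match to such letters is a description of sequence, and binding was not measured here.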

How the data were processed

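Total RNA was sequenced from 300 ng per animal with a directional kit, after ribosomal RNA reduction and addition of ERCC spike-ins, per the labels' protocols. The deposited expected counts are the authors' unnormalized read estimates for each gene and transcript. The deposited TPM and the deposited percent of each transcript in its gene come from the same tables, per the file headers. All used mm10 and GENCODE M21, per the deposited README. Not given in the sources used here are the aligner, the quantifier versions and the strand setting.

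The members, role groups and gene lists were chosen with earlier results of these data known. Expected counts were rounded, and library sizes were TMM-scaled with edgeR 4.0.16 under R 4.3.3. For log2 ratios 1 count was added as a prior. Genes averaging at least 10 counts entered an exact binomial test with Benjamini-Hochberg adjustment at 0.05. It was also run on simulated counts with planted changes and counting noise only. That run cannot show how the test fares with the larger spread between these libraries. The p-values measure counting noise only. Size was judged at 1.5-fold and a mean of 100 or more counts, and intervals are Clopper-Pearson at 95%. A chi-square of 103 per degree of freedom between the libraries exceeded sampling noise, so they were not 1 library deposited again. Every DNAJ member is accounted for. Partners named are the 6 most abundant, and the 4 largest and 4 smallest ratios. A gene of the added lists is not reported here.

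The planned comparison of RefSeq proteins was not used here, and triplet positions were read from GENCODE coding sequences instead. Motifs were searched on both strands, and GAANNTTC and TTCNNGAA overlap in the run of 3 units. The alternatives tried were scaling by total counts, by spike-ins or by DESeq2 1.42.0 size factors, other count and TPM minimums, another prior, edgeR's exact test with a variation of 0.1, TPM ratios, the second quantification and each animal left out. Coding shares and compartment ratios in the second quantification were added after seeing the data. Python 3.11.15, pandas 2.3.3, numpy 2.4.6, scipy 1.17.1 and matplotlib 3.10.9 were used. Parental alleles were not separated.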

Additional observations from a re-analysis of the deposited data

How the results depend on the processing

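The count of DNAJ members called between the animals was 7 and became 12 with total counts, 24 with spike-ins and 3 with an assumed variation of 0.1. Under that variation 291 of 14101 genes were called, and the count of partners became 3 instead of 14. The members' median log2 ratio of −0.05 became 0.066 with total counts and −0.20 with spike-ins, by construction of the scaling. Dnajc7 turned from 0.17 in counts to −0.069 in TPM with 0.1 added and −0.067 with 1 added. TPM divides counts by the effective length of the gene's transcripts, which was 1070 bases in replicate 1 and 1241 in replicate 2. Why this length differed was not tested. The members' median level of 10.8 TPM was 9.21 TPM in the second quantification, 24.8 TPM when rescaled over nuclear protein-coding genes, and 10.4 to 11.1 TPM with 1 animal left out. In the second quantification the long Dnajb6 transcript held 72.4% instead of 75.0%, and Dnajb5-204 held 73.2% instead of 88.5%. There the mean ratio to the HSP70 gene was 0.503 instead of 0.673 in the cytosol and 2.20 instead of 1.55 in the mitochondrion, or 0.589 and 0.924 with coding transcripts instead of 0.725 for each. The ratios remained on the same side of 1, and the cause of these moves was not tested. The count of members 1.5-fold apart was 3 or 4 under every alternative run, with all of them higher in replicate 1. With 1 animal left out, 33 or 34 of 35 dominant transcripts stayed the same. Of the 37 tested members, 36 kept their side of the threshold with DESeq2 size factors and 37 without a count minimum. No paired analysis was possible because the study has 1 group. With 1 library per animal the differences cannot be checked in replicates, and ratios of members with few counts, such as Dnajc24 and Dnajc17, have wide counting intervals.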
